A study of Mus musculus with 52 samples.

Results

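The genes of the sperm tail were followed in mice that lack the long noncoding RNA locus Tug1. Members were the protein-coding genes whose names place them in the cilia and flagella associated protein (Cfap), axonemal dynein (Dnah, Dnai), tektin (Tekt), outer dense fibre (Odf), sperm-associated antigen (Spag), ropporin (Ropn1) or A-kinase anchoring protein (Akap3 and Akap4) families. The testes table listed 70 such genes of 34865 genes in all, 19438 of them protein-coding: 26 Cfap, 15 Dnah, 5 Tekt, 8 Odf, 12 Spag, 2 Ropn1 and 2 Akap genes, and no gene of a Dnai name. Membership used names alone and no measured value. A shared name is not a shared role, and some Spag genes have no known place in the axoneme.

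RNA-seq was run on polyA RNA from male mice. In the testes, 4 wild-type libraries, 4 Tug1-/- libraries and 3 rescue libraries were compared. Tug1-/- mice carry lacZ in place of most of the locus, under the native Tug1 promoter. Rescue mice carried that same deletion on both alleles together with a doxycycline-inducible Tug1 transgene, of an isoform that lacks the 5′ end, at a random site of integration, and the ubiquitous CAG-rtTA3 driver, with doxycycline in the food from the day of the plug. The labels give the mixed C57BL/6J and 129S6 background of the wild-type testes as C57BL/6J without Neo, and that of the Tug1-/- and rescue testes as C57BL/6J with Neo and LacZ, so that the strain label and the genotype cannot be told apart in this comparison. Spleen, liver, heart, eye and mouse embryonic fibroblasts (MEFs, from embryos of day 14.5, male, passage 2) had 3 libraries per genotype and prostate had 3 wild-type and 2 Tug1-/- libraries, all on an N3 C57BL/6J background without Neo. Ages of the adult mice were not given in the sources used here.

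The values are the authors' group means in TPM (transcripts scaled to 1 fixed total per library), a level already divided by transcript length. No value of a single library was at hand, and the authors' own test columns were not used. Means therefore stand here without a spread, no test was run, and a difference is given only as its size beside the size of differences across all genes of the same table. Sequencing depth per library is unknown. Differences are log2 ratios of (mean TPM + 0.1), so the ratios of low genes are understated, and genes with at least 1 TPM in either group of a comparison are counted. A gene is counted as past 1.2-fold when its ratio exceeds that size in either direction. In whole testes and other organs, fewer cells of a type and less RNA per cell cannot be told apart. The targeted gene itself, Tug1, had 40.1 TPM in wild-type testes, 0.885 TPM in Tug1-/- testes and 1.60 TPM in rescue testes.

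The tail of a sperm is built around an axoneme, a ring of doublet microtubules around a central pair. Dynein heavy chains are the motors: outer arms drive beating, inner arms shape it, and tektins lie along the inside of the doublets. In mammalian sperm the axoneme is wrapped by outer dense fibres along the midpiece and principal piece and by the fibrous sheath, a scaffold of Akap3 and Akap4 that anchors signalling proteins such as the ropporins. Most of these messages are made in meiotic and round spermatid stages. The same axonemal families also build motile cilia in other organs, while outer dense fibres and the fibrous sheath are features of sperm.

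Transcription factors of the RFX family bind the X-box of ciliary genes, and the germ cell activator CREM binds cAMP response elements (CRE) of haploid genes. Promoter windows of 250 bases before to 50 after the start (RefSeq, GRCm38.p6, matched by gene symbol) were found for 58 of the 70 members, with 1 window a gene, the one nearest to the gene's start in the testes table. The nearest window can still lie far from that start. For Cfap43, on the minus strand of chromosome 19, the window is 47837312-47837611 and the gene starts at 47919299. Odf1, Odf3l2, Cfap53, Cfap54, Cfap65, Cfap73, Cfap97, Cfap157, Dnah3, Spag1, Spag11a and Spag11b had no window. The X-box half-site GTTGCC, sought on both strands, was found in 21 of the 58 windows (36.2%), compared with 12.5% of all 32851 windows of this length, 13.0% of those of 14653 other protein-coding genes and 22.04% of those of 1311 other testis-restricted genes, which are defined below. The CRE half-site TGACGT was found in 4 of 58 windows (6.90%), compared with 9.62% of other protein-coding genes and 5.26% of testis-restricted genes, and the full CRE TGACGTCA, which contains the half-site, in 3 (5.17%), compared with 2.61% and 1.53%. Members had a median of 12 CG dinucleotides per window, other protein-coding genes 16 and testis-restricted genes 4. Akap3 and Akap4 had none. These matches are descriptions of letters in a window, not binding sites.

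The windows below, from 200 bases before to 30 after the start, are shown for members that later results turn on and that were chosen after the search: a tektin and a ropporin with a half-site next to the start, the dynein heavy chain with the highest level in the eye, a central-pair gene with a full CRE, and Akap4, which has no match. Capitals mark X-box half-sites (GTTGCC or its reverse complement GGCAAC) and CRE half-sites, both strands joined where they overlap.
Tekt1, GRCm38, chr11:72361853-72362082, minus strand: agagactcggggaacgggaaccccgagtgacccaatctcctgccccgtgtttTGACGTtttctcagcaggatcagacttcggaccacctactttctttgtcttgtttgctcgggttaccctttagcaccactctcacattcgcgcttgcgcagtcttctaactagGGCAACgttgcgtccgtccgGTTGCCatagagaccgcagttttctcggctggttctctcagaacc
Ropn1l, GRCm38, chr15:31453660-31453889, minus strand: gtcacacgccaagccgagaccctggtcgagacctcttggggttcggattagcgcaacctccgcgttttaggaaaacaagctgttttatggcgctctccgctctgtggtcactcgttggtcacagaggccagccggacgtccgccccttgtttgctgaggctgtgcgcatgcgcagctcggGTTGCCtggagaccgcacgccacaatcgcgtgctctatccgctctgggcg
Dnah7b, GRCm38, chr1:46066653-46066882, plus strand: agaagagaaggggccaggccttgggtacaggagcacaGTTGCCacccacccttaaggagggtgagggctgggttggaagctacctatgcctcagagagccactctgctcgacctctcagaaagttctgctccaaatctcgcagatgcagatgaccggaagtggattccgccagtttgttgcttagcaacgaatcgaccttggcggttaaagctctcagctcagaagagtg
Spag6l, GRCm38, chr16:16829334-16829563, minus strand: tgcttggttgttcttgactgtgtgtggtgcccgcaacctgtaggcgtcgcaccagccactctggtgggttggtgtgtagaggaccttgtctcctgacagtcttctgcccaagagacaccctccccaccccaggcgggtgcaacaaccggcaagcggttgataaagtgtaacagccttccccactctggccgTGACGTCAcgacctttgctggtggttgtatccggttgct
Akap4, GRCm38, chrX:7067315-7067544, plus strand: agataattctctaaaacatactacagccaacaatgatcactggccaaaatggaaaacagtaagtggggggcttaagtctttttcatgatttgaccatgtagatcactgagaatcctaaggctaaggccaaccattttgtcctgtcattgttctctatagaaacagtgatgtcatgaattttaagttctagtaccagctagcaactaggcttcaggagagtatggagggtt
The start in these windows is the RefSeq start. Its distance from the gene's start in the testes table was 560 bases for Tekt1 and 538 for Dnah7b. It was 93 for Spag6l, 48 for Ropn1l and 4 for Akap4. In Tekt1 the half-site matches begin 35 and 15 bases before the RefSeq start, with a CRE half-site 148 bases before it. In Ropn1l the match begins 20 bases before the start and in Dnah7b 163 bases before it. Only the exact letters were sought, so near matches that differ in a letter, as near the start of Dnah7b, are not marked. The full CRE of Spag6l begins 9 bases before the start, and an X-box half-site lies 35 bases after it, outside the printed stretch.

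In wild-type testes the members were abundant. Their levels summed to 20021 TPM, 2.00% of all transcripts, and the median of the 68 members of at least 1 TPM was 119 TPM, compared with 14.0 TPM for all protein-coding genes of at least 1 TPM. A level above 100 TPM was found for 35 members, and above 1000 TPM for 5: Odf1 at 2847 TPM, Ropn1l at 2301 TPM, Akap4 at 2229 TPM, Odf2 at 1354 TPM and Akap3 at 1089 TPM. By name, all 5 were grouped here with the fibrous sheath and its partners or with the outer dense fibres. The most abundant member of the other groups was Cfap206, a gene of the radial spoke base, at 911 TPM. Dnah11 at 0.532 TPM and Odf3l2 at 0.0129 TPM stayed below 1 TPM in all 3 testes groups.

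The loss of Tug1 left nearly the whole set within a narrow band. Of the 68 members of at least 1 TPM in wild-type or Tug1-/- testes, 0 were higher past 1.2-fold and 2 were lower, while 18.4% of all 22378 genes passed that size in either direction, and 7.07% of other protein-coding genes with at least 10 TPM in wild type. The 2 were Spag11a and Spag11b, described further below. The other 66 lay between -0.17 (Dnah6) and 0.14 (Cfap77) on the log2 scale, with a median of -0.02, and 41 were below 0. The protein-coding genes of this table had a median of 0.04, with 33.1% below 0, and relative to that shift the median of all 68 members was -0.06. Of all 68, 63 were within 10% of the wild-type level (92.6%), compared with 82.4% of other protein-coding genes of at least 10 TPM. A second background was made of genes as restricted to the testes as most members: 1794 other protein-coding genes with at least 1 TPM in wild-type testes and at least 90% of their summed wild-type level over 7 tissues in testes. Of these, 11.6% were past 1.2-fold, 92 higher and 117 lower, and 77.6% were within 10% of wild type. At 1.5-fold, 28 were higher and 83 lower. Epididymis was not among the 7 tissues, so genes of that duct can count as testis-restricted. Spag11b, a gene of the epididymis described below, had a share of 99.99%. The part of such genes in these counts was not tested. The plots of levels and of ratios by role show the same values gene by gene.

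**Figure D1:**
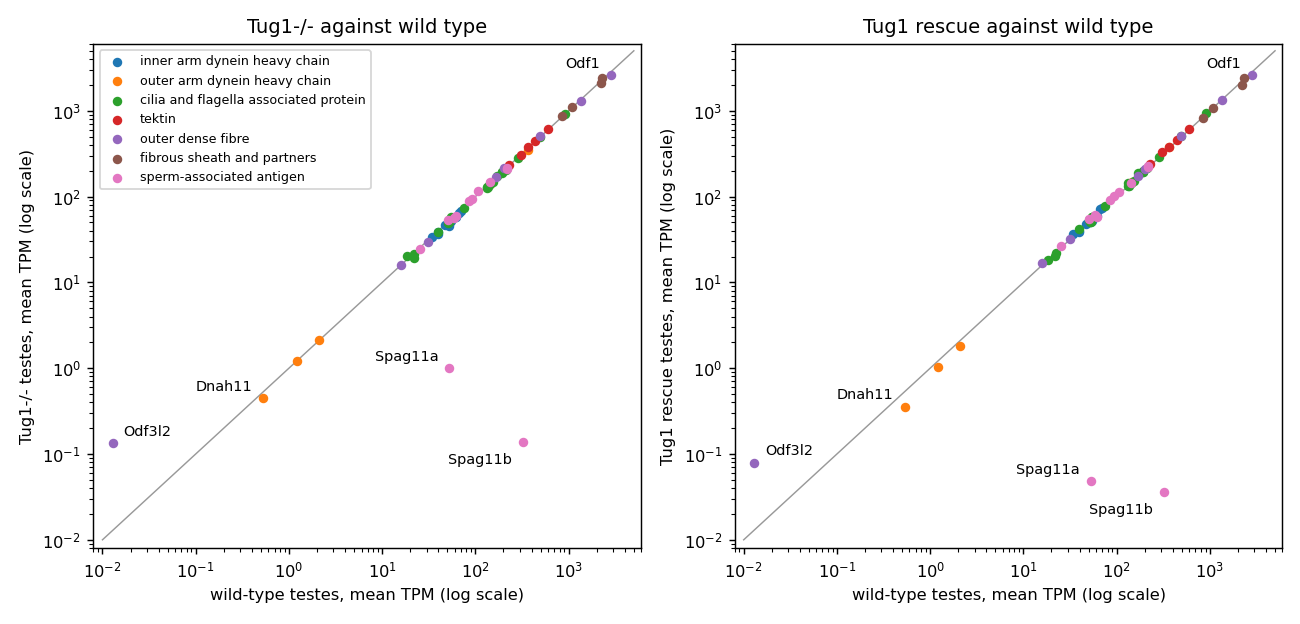
Mean TPM of the 70 members in wild-type testes (x axis, log scale) against Tug1-/- testes (left) and Tug1 rescue testes (right; y axes, log scale), 1 point a gene, coloured by role, with the line of equal level. All points lie on or close to the line except Spag11a and Spag11b far below it, and Odf3l2 and Dnah11 at under 1 TPM.

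**Figure D2:**
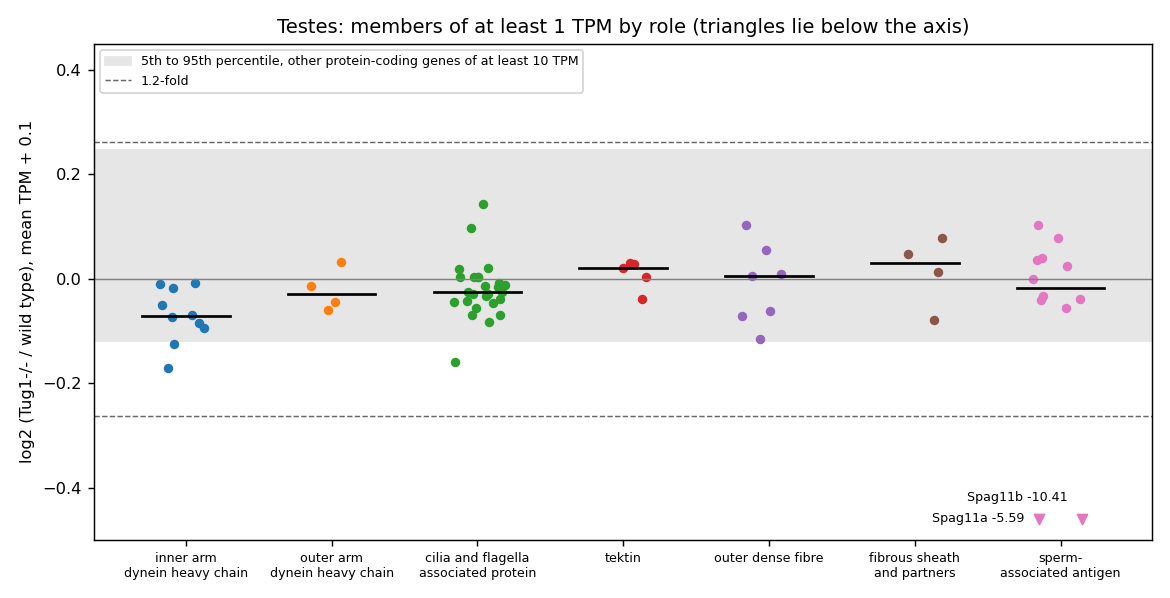
The log2 ratio of Tug1-/- to wild-type mean TPM (+ 0.1) in testes for the 68 members of at least 1 TPM, by role, with black bars for medians, dashed lines at 1.2-fold and a grey band from the 5th to the 95th percentile of other protein-coding genes of at least 10 TPM. Inner arm dynein heavy chains all lie below 0, and the triangles stand for Spag11a (-5.59) and Spag11b (-10.41), which lie below the axis.

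The dynein heavy chains gave the most uniform direction. All 10 members grouped as inner arm chains, with the less well placed Dnah14 among them, were lower in Tug1-/- than in wild-type testes, by small amounts: their log2 ratios ran from -0.01 (Dnah7c) to -0.17 (Dnah6), with a median of -0.07. Their summed level was 518 TPM in wild type, 492 TPM in Tug1-/- and 527 TPM in rescue testes. Dnah6 had 51.7 TPM in wild type, 45.9 TPM in Tug1-/- and 50.9 TPM in rescue testes, which places the knockout at 88.8% and the rescue at 98.5% of wild type. Dnah10 had 39.4 TPM, 36.2 TPM and 39.1 TPM in the same order. In rescue relative to Tug1-/- testes their ratios ran from 0.04 to 0.16, with a median of 0.10. The 2 comparisons share the Tug1-/- mean, so a low knockout mean alone gives a ratio above 0 in the second, and its direction is no separate support. Relative to wild type the rescue median was 0.04, and 0 of the 10 reached 1.2-fold in the knockout.

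Dnah7a, Dnah7b and Dnah7c are near-identical genes on chromosome 1 (53397006-53706784 on the minus strand, 46066315-46373546 and 46425592-46807476 on the plus strand, GRCm38), of which Dnah7b and Dnah7c are neighbours. They encode 1 kind of inner arm chain, and uniquely mapped reads may be split unevenly among them. Their wild-type levels were 39.2 TPM, 34.2 TPM and 46.7 TPM, and their knockout levels 99.3%, 98.8% and 99.4% of those. Of the 10 inner arm chains, these 3 lay closest to wild type in the knockout.

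Among outer arm heavy chains the sperm forms dominated. Dnah8, the most abundant dynein heavy chain in this tissue, had 368 TPM in wild type, 353 TPM in Tug1-/- and 382 TPM in rescue testes. Dnah17 had 144 TPM, 140 TPM and 147 TPM. The chains known from the motile cilia of airway and brain were low: Dnah5 had 1.22 TPM in wild type, 1.21 TPM in Tug1-/- and 1.02 TPM in rescue, and Dnah9 had 2.10 TPM, 2.15 TPM and 1.83 TPM. The abundant pair was thus slightly lower in the knockout than in wild type. Relative to wild type the rescue ratios were 0.05 for Dnah8 and 0.03 for Dnah17, beside a median of 0.05 for all protein-coding genes. The scarce pair was lowest in the rescue.

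**Figure D3:**
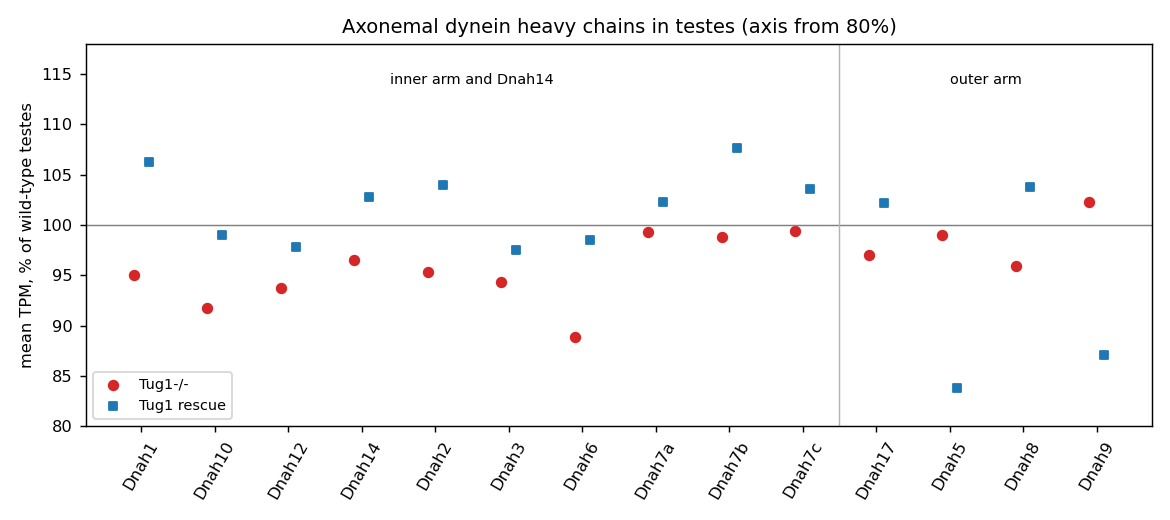
Mean TPM of the 14 dynein heavy chains of at least 1 TPM in testes, as a percent of the wild-type mean (y axis, starting at 80%), in Tug1-/- (circles) and Tug1 rescue testes (squares), 1 gene per position. The circles of all inner arm chains lie below 100%, from 88.8% for Dnah6 to 99.4% for Dnah7c, and each has its square above it.

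Heavy chain messages are among the longest of the testis, so the ratio was set beside exon length. Of the 19 members with at least 10000 exonic bases, 16 were lower in Tug1-/- testes (84.2%), with a median log2 ratio of -0.05, compared with 36.4% of 1279 other protein-coding genes of that length and 53.3% of the 15 testis-restricted genes among them. Of the 18 members under 2000 bases, 9 were lower (50%), compared with 38.0% of other protein-coding genes and 47.7% of testis-restricted genes. From 2000 to 5000 bases 9 of 19 members were lower (47.4%), compared with 30.9% and 40.8%. From 5000 to 10000 bases 9 of 12 were lower (75%), compared with 31.6% and 53.8%. In rescue relative to Tug1-/- testes the median of the long members was 0.08 and that of the short members 0.02. Other protein-coding genes of those lengths had 0.02 and -0.02. The part of length or RNA quality in these differences was not tested.

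The 26 Cfap genes, which include central-pair, radial-spoke, doublet and docking proteins, summed to 4030 TPM in wild type, 4000 TPM in Tug1-/- and 4134 TPM in rescue testes. Their ratios ran from -0.16 to 0.14, 18 of 26 were below 0, and 0 were past 1.2-fold, beside the 33.1% of all protein-coding genes below 0. Cfap54, a central-pair protein, was lowest at 21.7 TPM in wild type, 19.4 TPM in Tug1-/- and 20.5 TPM in rescue. Cfap77 was highest, from 18.4 TPM to 20.3 TPM, with 18.2 TPM in rescue. The abundant Cfap206 had 911 TPM, 923 TPM and 941 TPM, and Cfap36 490 TPM, 491 TPM and 511 TPM. Cfap43 and Cfap44, needed for normal sperm tails, had 154 TPM and 51.6 TPM in wild type and 146 TPM and 49.97 TPM in Tug1-/- testes. In rescue relative to Tug1-/- testes their median was 0.05.

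The 5 tektins held levels from 229 TPM to 604 TPM and were the tightest group. Tekt1 had 604 TPM in wild type, 606 TPM in Tug1-/- and 615 TPM in rescue testes. Tekt4 had 439 TPM, 445 TPM and 453 TPM, and Tekt2 368 TPM, 376 TPM and 376 TPM. Tekt3 was the single tektin below wild type in the knockout, with 310 TPM, 302 TPM and 328 TPM. Tekt5 had 229 TPM, 233 TPM and 241 TPM. Their log2 ratios of knockout to wild type ran from -0.04 to 0.03.

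The outer dense fibre genes differed in direction. Odf1, on chromosome 15 (38219203-38226735, plus strand), encodes the main small protein of the fibres and had 2847 TPM in wild type, 2628 TPM in Tug1-/- and 2609 TPM in rescue testes, a log2 ratio of -0.12 for the knockout. Odf2 had 1354 TPM, 1298 TPM and 1323 TPM. Odf4, by contrast, had 489 TPM, 508 TPM and 508 TPM, and Odf3 201 TPM, 216 TPM and 212 TPM, a log2 ratio of 0.10. Of the 7 at or above 1 TPM, 3 were below wild type in the knockout and 0 were past 1.2-fold.

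The fibrous sheath group showed the same mixture. Akap4, on the X chromosome (7067519-7078609, plus strand), is the main protein of the sheath and had 2229 TPM in wild type, 2111 TPM in Tug1-/- and 2008 TPM in rescue testes, or 94.7% and 90.1% of wild type. Akap3 had 1089 TPM, 1098 TPM and 1079 TPM. Ropn1l had 2301 TPM, 2430 TPM and 2404 TPM, and its paralog Ropn1 849 TPM, 877 TPM and 820 TPM. These paralogs may share reads. Odf1 and Akap4 were thus lower, and Ropn1l and Odf3 higher, in both groups that lack the endogenous gene body.

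Markers of cell types were set beside the fibre and sheath genes. Of those named above, Odf1, Odf2 and Akap4 were lower in the knockout, and Odf3, Odf4, Akap3, Ropn1 and Ropn1l higher. The 9 elongating spermatid markers included protamines and transition proteins. They summed to 58045 TPM in wild type, 54801 TPM in Tug1-/- and 53494 TPM in rescue testes. Their median log2 ratio was -0.11 for the knockout, while Tnp2 and Tssk6 among them lay at 0.006 and 0.009. The 7 round spermatid markers had a median of 0.03 and the 7 spermatocyte markers of 0.10. Somatic markers were higher in Tug1-/- testes: 6 of 7 Sertoli markers were past 1.2-fold (summed level 183 TPM to 254 TPM), 5 of 7 Leydig markers (626 TPM to 899 TPM) and 6 of 8 macrophage markers (77.9 TPM to 101 TPM), and 0 of these 22 were lower past that size. In either direction 18.4% of all genes and 15.2% of protein-coding genes passed it. Of 7 spermatogonium markers, 1 was lower past that size and 0 were higher. The part of cell makeup in the small differences of the members was not tested.

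The sperm-associated antigens held both exceptions. Of the 12 Spag genes, 10 lay between -0.06 and 0.10. Spag6 and Spag6l, paralogs of the central pair that may share reads, had 107 TPM and 216 TPM in wild type and 114.9 TPM and 216 TPM in Tug1-/- testes. Spag16 and Spag17, which also belong to the central pair, had 61.4 TPM and 218 TPM in wild type and 59.97 TPM and 212 TPM in Tug1-/- testes.

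Spag11a and Spag11b are neighbours on chromosome 8 (19157886-19159578 and 19140759-19143010, plus strand, GRCm38) that encode defensin-like peptides secreted by the epididymis, and they have no known role in the axoneme. Spag11b had 323 TPM in wild type, 0.137 TPM in Tug1-/- and 0.0360 TPM in rescue testes. Spag11a had 52.5 TPM, 0.995 TPM and 0.0479 TPM. The log2 ratios of knockout to wild type were -10.41 and -5.59. They are paralogs, and reads may be split between them.

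Of 6 markers of the epididymis, the duct that receives sperm from the testis, 5 were lower with these genes in Tug1-/- testes and 1, Crisp1, was higher. Their summed level was 2479 TPM in wild-type, 809 TPM in Tug1-/- and 8.45 TPM in rescue testes. Lcn8 and Lcn5, lipocalins of the epididymal head, had 799 TPM and 680 TPM in wild type and 0.244 TPM and 0.0155 TPM in Tug1-/- testes. Rnase10 went from 190 TPM to 7.93 TPM, and Ovch2 from 57.6 TPM to 0.0671 TPM. Adam7 had 326 TPM in wild type, 39.8 TPM in Tug1-/- and 0.0193 TPM in rescue testes. Crisp1 alone was higher in Tug1-/- testes, with 427 TPM in wild type, 760 TPM in Tug1-/- and 0.348 TPM in rescue. All 6 of these differences were past 1.2-fold. Epididymal messages were thus present in the means of both the wild-type and the Tug1-/- libraries, at different proportions, and near 0 in the rescue for all but Rnase10 at 7.79 TPM. Group means do not show how many libraries carried them, and the part of attached epididymis in the Spag11 difference was not tested.

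**Figure D4:**
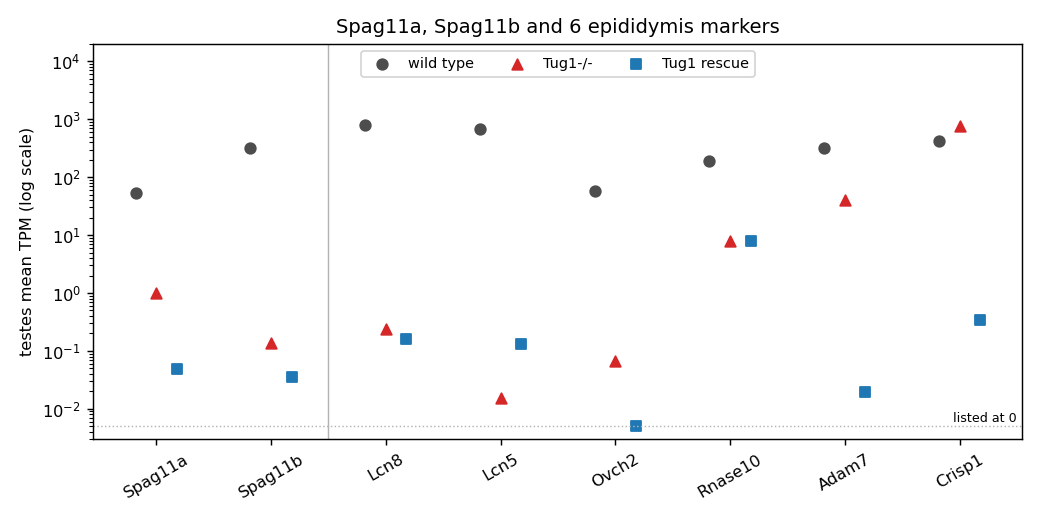
Mean TPM in testes (y axis, log scale) of Spag11a, Spag11b and 6 epididymis markers in wild type (circles), Tug1-/- (triangles) and Tug1 rescue (squares); the dotted line marks a gene listed at 0. Spag11a, Spag11b, Lcn8, Lcn5 and Ovch2 lie below 1 TPM in both groups without the endogenous gene body, while Crisp1 is higher in Tug1-/- (760 TPM) than in wild type (427 TPM).

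The rescue comparison sets testes with the Tug1 transgene beside Tug1-/- testes. The rescue mice also carried the CAG-rtTA3 driver and were described as fed doxycycline. The parts of transgene, driver and food cannot be told apart here. Relative to Tug1-/- testes, 0 of the 66 members of at least 1 TPM in either group were past 1.2-fold, while 15.7% of all 22180 genes and 3.33% of other protein-coding genes with at least 10 TPM in wild type were. Spag11a, at 0.995 TPM in the knockout and 0.0479 TPM in the rescue, fell just under the minimum and is not among the 66, with a log2 ratio of -2.89. The ratios of the 66 ran from -0.22 to 0.17, with a median of 0.05, and 16 of the 66 were below 0 (24.2%), compared with 46.5% of all protein-coding genes, whose median was 0.01. Medians of markers were 0.07 for spermatocytes, -0.03 for round and -0.04 for elongating spermatids. Of 7 Sertoli markers 3 were higher past 1.2-fold and 0 lower, and of 7 Leydig markers 0 were higher and 3 lower. Of 8 macrophage and of 7 spermatogonium markers, 2 each were higher and 1 each lower. The part of cell makeup was not tested. Relative to wild type, 2 of 68 members were past 1.2-fold, Spag11a and Spag11b again, both lower, compared with 23.0% of all 22393 genes and 9.66% of those abundant protein-coding genes, and the other 66 ran from -0.23 (Dnah5) to 0.14 (Cfap65), and 64 of all 68 (94.1%) were within 10% of wild type, compared with 70.7% of those abundant protein-coding genes. The median of all 68 was 0.03, and -0.02 relative to the median of 0.05 of all protein-coding genes. The 3 testes comparisons share their groups, so their values stand side by side and are not independent.

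Other genes of the axoneme and of tail assembly had similar values. Of 38 other axoneme genes that do not carry the family names (dynein light and intermediate chains, docking, regulatory-complex, radial-spoke and assembly factors), 37 were at or above 1 TPM in testes. Of these, 1 was higher and 0 were lower past 1.2-fold in Tug1-/- testes, compared with 18.4% of all genes, with a median of -0.01. The higher one was Dyx1c1, a dynein assembly factor, with 1.32 TPM in wild type and 1.76 TPM in the knockout. Of 21 intraflagellar transport genes, which carry cargo along the growing tail, 0 passed that size, with a median of -0.01. Their sums were 9439 TPM in wild type, 9389 TPM in Tug1-/- and 9926 TPM in rescue testes for the axoneme genes, and 2327 TPM, 2322 TPM and 2404 TPM for the transport genes. In rescue relative to Tug1-/- testes both lists had a median of 0.07, beside 0.05 for the members.

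Regulators of these genes were followed as well. Of 12 regulators of ciliary and haploid genes, 0 passed 1.2-fold in Tug1-/- testes, compared with 18.4% of all genes, with a median of 0.03. Rfx2, the main RFX factor of spermatids, had 364 TPM in both groups. Crem had 100.4 TPM and 102 TPM. Foxj1, the master factor of motile cilia, had 71.9 TPM and 71.7 TPM.

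Outside the testes most members were scarce. Of the 68 members of at least 1 TPM in wild-type testes, 51 (75.0%) had at least 90% of their wild-type level, summed over 7 tissues, in testes, compared with 12.3% of 15007 protein-coding genes. The testes table was normalised apart from the table of the other tissues, so this share describes the deposited means and is not a test. A level of 1 TPM was reached in no other tissue by 31 of the 70 members. Akap4, Odf1, Ropn1 and Spag11a, the 4 members listed in the testes table alone, were taken as 0 elsewhere. Akap3, Odf4, Tekt3 and Spag17 had shares of 99.97%, 99.87%, 99.94% and 99.89%. At the other end, 8 members were at or above 1 TPM in every tissue: Cfap20, Cfap36, Cfap97, Cfap126, Odf2, Odf2l, Spag7 and Spag9. Spag7 had a testes share of 9.58% and Spag9, a scaffold of kinesin transport, one of 13.4%. Cfap20, a doublet protein of all cilia, had 28.7%, Dnah11 11.97% and Odf3l2 1.80%. Examples of levels away from the testes among the rest were Spag5 with 30.3 TPM in wild-type eye, Spag1 with 11.7 TPM in prostate, Dnah7b with 9.64 TPM in eye, Cfap43 with 52.8 TPM in wild-type MEFs and 24.2 TPM in spleen, Ropn1l with 24.3 TPM in liver, and Dnah8 with 6.58 TPM in spleen.

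Eye was the tissue with the most members, 34 at or above 1 TPM, and the one with the lowest median of the members. In Tug1-/- eyes 2 were higher and 15 were lower past 1.2-fold (50%), compared with 28.9% of all 19709 genes. The minimum of 1 TPM in either group lets a gene in through the group where it is high, which helps to fix its direction. Of the 28 members at or above 1 TPM in both genotypes, 0 were higher and 11 lower (39.3%), compared with 25.6% of all genes so chosen, with a median of -0.21. The median of all 34 was -0.22, and 29 of them (85.3%) were below 0. The protein-coding genes of the eye table had a median of -0.09, with 71.7% below 0, and relative to that shift 2 members were higher and 10 lower, with a median of -0.13, beside -0.14 in prostate on the same footing. The share of all genes past 1.2-fold relative to that shift is not at hand, so this count stands without a background. Dnah7c, which passed the minimum in wild type alone, had 1.45 TPM and 0.698 TPM, Dnah7b went from 9.64 TPM to 5.86 TPM, and Tekt2 from 2.99 TPM to 1.98 TPM, log2 ratios of -0.96, -0.71 and -0.57. Dnah9 had 3.97 TPM and 2.70 TPM. Dnah7b rested on a mean normalised count of 2101 and Dnah7c on 183. Dnah7b, the paralog with the largest share of its level outside the testes, is the same gene that had 98.8% of its wild-type level in Tug1-/- testes. Both higher members passed the minimum in the knockout alone: Odf3l2, with 0.707 TPM and 1.09 TPM on a mean normalised count of 15.5, and Cfap58, with 0.872 TPM and 1.12 TPM. Spag7 and Spag9, the most abundant members in eye, had 134 TPM and 103 TPM in wild type and 136 TPM and 99.2 TPM in Tug1-/- eyes.

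Photoreceptors carry a modified cilium, and their markers were set beside the eye values. The 7 photoreceptor genes had a median log2 ratio of -0.19, with Gnat1, the rod transducin subunit, at 9815 TPM and 8902 TPM. Of the 7, 0 were past 1.2-fold, compared with 28.9% of all genes of the eye. The 6 genes of the retinal pigment epithelium had a median of -0.01, and 8 mitotic genes one of -0.20, with 1, Top2a, lower past 1.2-fold (4.51 TPM and 3.24 TPM). The part of the retina's share of the dissected eye in the members' values was not tested.

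In spleen, 17 members were at or above 1 TPM, 1 was higher and 5 were lower past 1.2-fold (35.3%), near the 34.8% of all 17260 genes. All protein-coding genes of this table had a median of -0.11, and relative to that shift 3 members were higher and 2 lower. For that count, too, the share of all genes on the same footing is not at hand. Spag5, which despite its name is a protein of the mitotic spindle, went from 12.4 TPM to 23.4 TPM, a log2 ratio of 0.91. Beside it, all 8 genes of a mitotic list were higher past 1.2-fold, with a median of 0.87, and Mki67, the proliferation antigen, went from 117 TPM to 233 TPM. Of the 15 members at or above 1 TPM in both genotypes, 1 was higher and 3 were lower (26.7%), compared with 31.4% of all genes so chosen. Cfap74, a central-pair protein that passed the minimum in wild type alone, had 1.88 TPM and 0.649 TPM (-1.40) on a mean normalised count of 181, and Tekt2 went from 1.92 TPM to 1.11 TPM (-0.73) on a count of 42.5. Cfap43 was lower from 24.2 TPM to 18.9 TPM, Cfap97 from 28.2 TPM to 23.1 TPM and Dnah17, again at or above 1 TPM in wild type alone, from 1.02 TPM to 0.823 TPM.

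MEFs had 16 members at or above 1 TPM, with 3 higher and 3 lower past 1.2-fold (37.5%), beside 28.1% of all 14824 genes. Spag5 was again among the higher ones, from 14.2 TPM to 19.5 TPM (0.46), with the 8 mitotic genes at a median of 0.25 and 2 of them, Aurkb and Plk1, higher past 1.2-fold, while Mki67 had 56.4 TPM in wild type and 52.05 TPM in the knockout. Spag4 went from 1.30 TPM to 1.77 TPM and Cfap157 from 9.09 TPM to 11.02 TPM. Tekt2 and Ropn1l were lower, from 2.53 TPM to 1.77 TPM (-0.49) and from 6.33 TPM to 4.68 TPM (-0.43), as was Cfap126, from 1.90 TPM to 1.44 TPM. All 3 of these rested on mean normalised counts of under 60, and Cfap43 in MEFs, at 52.8 TPM and 57.5 TPM, on 5679.

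Heart, liver and prostate held few members. In heart 9 were at or above 1 TPM and 2 were higher past 1.2-fold, Cfap126 from 1.58 TPM to 1.96 TPM and Odf2 from 5.64 TPM to 6.84 TPM, beside 18.6% of all 14004 genes. The protein-coding genes of the heart table had a median of 0.11, and relative to it 0 members passed and the members' median was -0.08. The share of all genes past 1.2-fold on that footing is not at hand. In liver 0 of 10 passed 1.2-fold, compared with 23.0% of all 12121 genes. The largest were Cfap20, from 16.7 TPM to 13.9 TPM (-0.26), and Odf2l, from 1.93 TPM to 1.61 TPM (-0.25), and Ropn1l had 24.3 TPM and 27.03 TPM. In prostate 2 of 14 were lower past 1.2-fold and 0 were higher, Cfap157 from 2.04 TPM to 1.58 TPM (-0.35) and Spag1, a dynein assembly factor, from 11.7 TPM to 9.23 TPM (-0.34), compared with 23.7% of all 15547 genes. Tekt2 thus lay below wild type in eye, spleen, prostate and MEFs, at levels under 3 TPM, while it had 0.412 TPM and 0.436 TPM in heart, and 368 TPM and 376 TPM in testes.

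**Figure D5:**
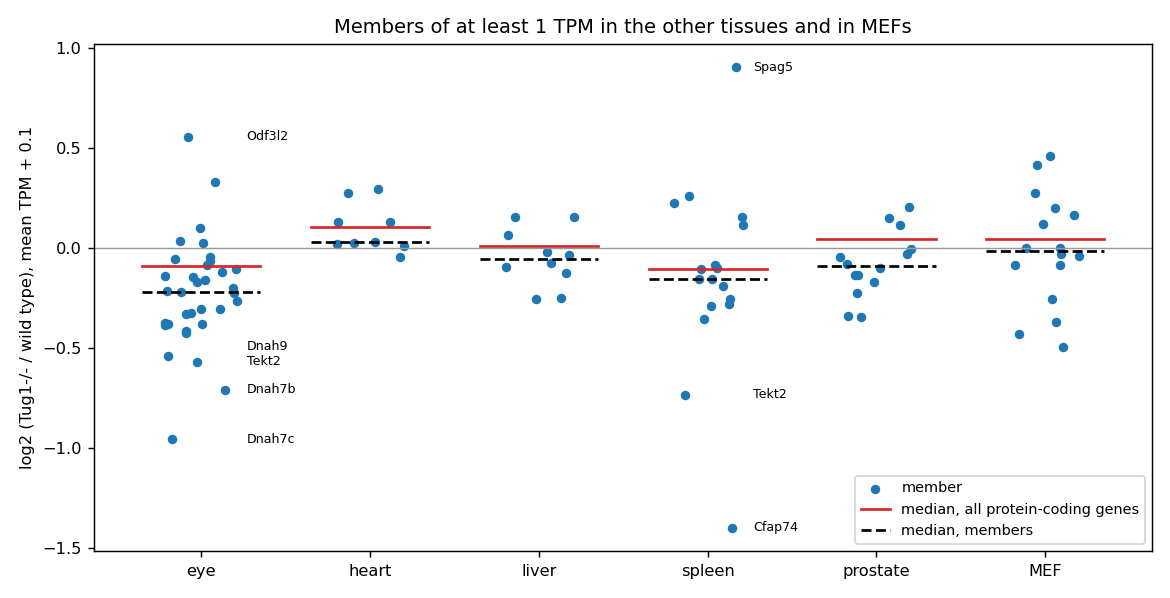
The log2 ratio of Tug1-/- to wild-type mean TPM (+ 0.1) of each member of at least 1 TPM in eye, heart, liver, spleen, prostate and MEFs, 1 point a gene, with the members' median (dashed black) and the median of all protein-coding genes of that tissue (red). Members of the eye have the lowest median (-0.22 beside -0.09 for all protein-coding genes), and the points furthest from 0 are Cfap74 (-1.40) in spleen and Dnah7c (-0.96) in eye, both at or above 1 TPM in wild type alone, and Spag5 (0.91) in spleen.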

How the data were processed

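RNA-seq libraries of polyA RNA (TruSeq, paired-end) came from testes, eye, heart, liver, spleen, prostate and MEFs. The authors aligned reads with STAR to GRCm38 (mm10), counted uniquely mapped reads per GENCODE vM16 gene with featureCounts, computed TPM, and dropped genes that no replicate covered with at least 3 reads. The submitters' processing notes also name CASAVA 1.8.2. The deposited tables hold group mean TPM per gene, and for the tissues other than testes the mean normalised count over both genotypes, a score of depth. They also hold columns of the authors' own comparisons with DESeq2 (fold changes, their errors, test statistics and p-values), which were not used. Rows of brain, and the libraries of hybrid F1 testes, were not analysed here. Values of single libraries were not used, so no test, SD or interval is given and depth per library is unknown.

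Here, log2 ratios of (mean TPM + 0.1) were computed with Python 3 (pandas, numpy) for genes of at least 1 TPM in either group, and counted past 1.2-fold. Strand-specific counting is not given in the sources used here. Exon lengths came from GENCODE vM21 (GRCm38), by gene ID. Markers and gene lists were taken as fixed lists, except the photoreceptor, pigment epithelium and mitotic lists, which were added after the values were seen. The members and all lists were chosen with earlier results of these data known. Genes were named by rule: the 15 members highest in wild-type testes, every member past 1.2-fold there, the 5 with the lowest testes share, the 3 with the largest ratios in each other tissue, and the Dnah7, ropporin, Akap, tektin and Odf1 to Odf4 sets. Dnah6, Dnah10, Dnah17, Dnah5, Dnah9, Cfap54, Cfap77, Cfap43, Cfap44, Cfap58, Cfap65, Cfap97, Spag4, Spag6, Spag6l, Spag16 and Spag17 were named in addition after their values were seen. Alternatives were pseudocounts of 0.01 and 1 TPM, no minimum and a minimum of 5 TPM, 1.1-fold and 1.5-fold, centring, rescaling and leaving out Spag genes. The scripts were tested on simulated data.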

Additional observations from a re-analysis of the deposited data

How the results depend on the processing

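No paired analysis was possible because the tables hold group means and no values of single libraries, and for the same reason no library could be left out. In testes, the count of members past 1.2-fold in Tug1-/- relative to wild type (2) was 5 at 1.1-fold and 0 without the Spag genes or, in an alternative chosen after seeing the data, without Spag11a and Spag11b. Rescue relative to Tug1-/- (0) gave 6 at 1.1-fold, 3 with no minimum and 1 after rescaling to protein-coding nuclear genes, and rescue relative to wild type (2) gave 5, 4 with no minimum, and 0 without Spag genes or without Spag11a and Spag11b. Testis-restricted genes (209) gave 408 at 1.1-fold and 111 at 1.5-fold. Away from the testes, where members are low, counts moved more. Eye (17) gave 10 with a pseudocount of 1 TPM, 30 with no minimum, 5 at a minimum of 5 TPM and 2 at 1.5-fold, and its median of -0.22 became -0.13 after centring. Heart (2) gave 0 with a pseudocount of 1 TPM, at 1.5-fold, after centring and after rescaling, 15 with no minimum and 1 at 5 TPM, and its median of 0.03 turned to -0.0763 after centring and to -0.0175 after rescaling. Liver (0) gave 8 with no minimum, 4 at 1.1-fold, 1 after centring and 2 after rescaling, and its median of -0.05 turned to 0.0218 with no minimum. Spleen (6) gave 20 with no minimum, 3 at 5 TPM, 13 at 1.1-fold and 3 at 1.5-fold, and its median of -0.15 became -0.0466 after centring. Prostate (2) gave 1 with a pseudocount of 1 TPM, at 5 TPM and without Spag genes, 10 with no minimum, 6 at 1.1-fold, 0 at 1.5-fold and 5 after rescaling, with the median at -0.17. MEFs (6) gave 16 with no minimum, 3 at 5 TPM and 0 at 1.5-fold. The cause of the reversals was not tested beyond these constructions. A minimum of 1 TPM in both groups, also chosen after seeing the data, gave 0 for Tug1-/- and for rescue relative to wild type in testes and 11 in eye. The median of rescue relative to wild type, 0.03, was -0.02 after centring, and that of testis-restricted genes, 0.01, was -0.03. The other 157 values, these 2 and the rescaled heart median included, moved by less than 0.05 on the log2 scale or by no more than 1.5 times. Replicate error, and depth per library, cannot be had from means.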

Other observations

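The family names also occur among antisense transcripts, which were not members. Dnah2os, an antisense RNA at Dnah2, had 0.937 TPM in wild type, 1.71 TPM in Tug1-/- and 1.42 TPM in rescue testes, while Dnah2 itself had 70.3 TPM, 67.0 TPM and 73.1 TPM. Spag17os had 0.141 TPM, 0.1003 TPM and 0.154 TPM. Reads of overlapping genes cannot be told apart where strand was not used in counting.

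Among the multiciliated cell markers, Deup1 and Foxj1 were abundant in testes and the others were low. Deup1, a centriole amplification gene, had 312 TPM in wild-type testes and 303 TPM in knockout testes, Foxj1 had 71.9 TPM and 71.7 TPM, whereas Mcidas and Gmnc, which set multiciliated fate, had 0.233 TPM and 0.355 TPM in wild type. Ccno, also of that fate, had 7.07 TPM and 3.87 TPM in the same order. Of the spermatogonium markers, Gfra1, the receptor of the stem cell factor GDNF, was the 1 past 1.2-fold, with 11.1 TPM in the wild-type and 3.84 TPM in the knockout mean, while Zbtb16 had 3.10 TPM and 3.08 TPM.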
